A study of Mus musculus with 24 samples.

Results

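Chemokines are small secreted proteins that steer migrating cells, and chemokine receptors are the G protein-coupled receptors that read them. The genes were taken from the array annotation by symbol: Ccl, Cxcl, Ccr or Cxcr followed by a number, with Cx3cl1, Cx3cr1, Xcl1, Xcr1, Pf4 and Ppbp. This gave 51 genes of the 12394 measured, 34 encoding ligands and 17 encoding receptors, each read through its brightest probe set by the mean of the 24 arrays. RNA came from mouse thyroids and was hybridised to Affymetrix Mouse430A_2 arrays. The 24 arrays hold 4 papillary thyroid cancers (PTC, a differentiated tumour), 5 anaplastic thyroid cancers (ATC, an undifferentiated tumour), 9 recurrent tumours and 6 pools of normal thyroid glands. By its title, the series is about resistance of anaplastic tumours to inactivation of BRAF, a kinase of the MAPK cascade. Of the normal pools, 4 are titled WT and 2 are titled Cre, without naming a transgene or the number of glands in a pool. The series' design text speaks of several mouse models without tying one to a group, and the labels used here give the tumours no genotype and no group a strain, age or treatment. Nor do they say whether each tumour is from its own mouse, so the p-values speak only to the spread among these samples, which may be technical in part.

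Levels are deposited log2 intensities. A difference of 1 is a doubling, and levels of different genes are not compared, because probe sets differ in brightness. A gene is said to have risen or fallen where limma, fitted to all 12394 genes, gave an adjusted p under 0.05 (a call), and differences are given as the first-named group minus the second with their standard error (SE). The number of arrays limits the precision.

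Chemokine names follow the spacing of the first cysteines in the protein (CC, CXC, CX3C and XC). Inflammatory chemokines are made on demand by macrophages, fibroblasts, endothelium and tumour cells and draw in monocytes, neutrophils or eosinophils, while homeostatic ones place lymphocytes and dendritic cells in tissues. In thyroid cancer the family is best known from infiltrating macrophages and lymphocytes. Each array reads a whole piece of tissue, so a change in the number of cells of a type and a change in RNA per cell cannot be told apart.

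Some facts about the arrays bear on the values. The array labelled recurrent 2 had a Braf level of 11.14, within the ATC range of 10.29 to 11.98, while the other recurrent arrays reached 7.14. Normal pool 5 was the highest pool for 27 of the 51 genes, with a mean of 9.03 over 15 macrophage markers against 7.63 to 8.06 in the other pools. Normal pool 3 had a mean of 7.09 over 6 thymus markers against 4.80 to 5.47 in the other pools. The mean of 7 thyroid follicular genes was 8.34 to 9.17 in PTC, 5.23 to 8.10 in ATC and 4.95 to 8.55 in recurrent tumours, against 10.39 to 10.97 in normal pools. Titles fall into a JK series (4 PTC, 2 ATC, 3 recurrent and 4 normal arrays), 2 normal pools titled Cre, and arrays titled with a bare number (3 ATC and 6 recurrent). The gap between 3' and 5' Gapdh probe sets, which reflects RNA integrity, was -0.02 to 0.17 on the bare-number arrays. It was 1.11 to 1.60 on the PTC arrays and 0.36 to 1.07 on the remaining arrays. Every PTC array thus lay above every other array in this gap, and the 2 cannot be told apart in comparisons with PTC, also within the JK series.

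The promoters of 5 ligand genes that rose in tumours, or that share their neighbourhood, are shown because several of these genes lie side by side. On chromosome 11 the order among protein-coding genes is Ccl2, Ccl7, Ccl11, Ccl12, Ccl8, Ccl1 without a gap, and Ccl5, Ccl9, Ccl6, Ccl3, Ccl4 follow each other likewise. On chromosome 5, Cxcl15, Cxcl1 and Cxcl2 are neighbours. The sequences are the 250 bases before the start site in RefSeq (build GRCm38.p6), 5' to 3' on the plus strand. They cover chr11:82101595-82101844 (Ccl12), chr11:82114935-82115184 (Ccl8), chr5:90794284-90794533 (Cxcl15), chr5:90890995-90891244 (Cxcl1) and chr5:90903649-90903898 (Cxcl2). Capitals mark matches, on either strand, to the TATA box TATAAA or to a form of the NF-kappaB site, GGGA and TTCC with any 2 bases between them. In Cxcl1 and Cxcl2, matches on both strands overlap in 1 run of letters.
Ccl12: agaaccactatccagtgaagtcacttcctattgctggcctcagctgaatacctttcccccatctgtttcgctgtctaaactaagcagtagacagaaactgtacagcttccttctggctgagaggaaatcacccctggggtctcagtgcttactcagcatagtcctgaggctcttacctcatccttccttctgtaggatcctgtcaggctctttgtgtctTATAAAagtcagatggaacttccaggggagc
Ccl8: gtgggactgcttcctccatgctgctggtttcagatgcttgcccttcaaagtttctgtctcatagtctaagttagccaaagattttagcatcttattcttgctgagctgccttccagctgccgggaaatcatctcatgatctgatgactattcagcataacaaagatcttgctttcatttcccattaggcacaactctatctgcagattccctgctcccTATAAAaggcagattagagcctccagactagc
Cxcl15: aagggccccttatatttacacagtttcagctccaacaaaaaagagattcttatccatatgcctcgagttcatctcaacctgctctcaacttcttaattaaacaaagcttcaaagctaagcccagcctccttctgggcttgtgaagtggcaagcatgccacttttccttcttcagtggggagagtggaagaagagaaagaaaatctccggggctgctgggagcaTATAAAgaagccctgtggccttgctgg
Cxcl1: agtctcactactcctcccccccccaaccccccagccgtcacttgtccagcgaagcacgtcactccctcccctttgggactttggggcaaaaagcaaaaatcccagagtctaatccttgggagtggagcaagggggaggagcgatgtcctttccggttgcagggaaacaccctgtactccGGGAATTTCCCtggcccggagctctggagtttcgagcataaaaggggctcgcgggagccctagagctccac
Cxcl2: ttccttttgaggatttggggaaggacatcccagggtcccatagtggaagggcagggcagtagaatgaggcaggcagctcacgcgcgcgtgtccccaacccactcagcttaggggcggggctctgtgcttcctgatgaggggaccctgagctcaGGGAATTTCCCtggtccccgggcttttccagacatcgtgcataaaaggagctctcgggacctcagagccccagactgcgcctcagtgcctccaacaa
The NF-kappaB form stood in 1.47% of 32851 promoter windows of 300 bases (250 before and 50 after the start). It stood in the windows of 5 of the 38 chemokine and receptor genes with one: Ccl1, Ccr3, Cxcl1, Cxcl2 and Cxcl10. TATAAA stood in 13.6% of all windows and in those of 12 of the 38 genes, starting at -31 in Ccl12, -32 in Ccl8 and -27 in Cxcl15. A form of the interferon-stimulated response element, a pair of TTTC with any 2 bases between them, stood in 3.44% of all windows and in those of Cxcl10 and Cxcl14. A match describes letters only.

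In PTC against normal glands, 8 of 51 chemokine and receptor genes changed, 5 higher and 3 lower, where 14.2% of all genes changed, 6.16% higher and 8.03% lower. Cxcl15, Ccl17, Cxcl1, Ccl8 and Ccl12 rose, and Ccl11, Cxcl11 and Ccl27a fell. In ATC against normal glands 21 changed, 17 higher and 4 lower, beside 34.3% of all genes, 15.1% higher and 19.1% lower. In recurrent tumours against normal glands 15 changed, 10 higher and 5 lower, beside 33.8% of all genes, 14.5% higher and 19.3% lower. ATC against PTC gave 7 changes, 5 higher and 2 lower, beside 17.2% of all genes, 7.81% higher and 9.35% lower. Recurrent tumours differed from ATC in 2 genes, both lower, beside 4.32% of all genes, 1.19% higher and 3.12% lower. From PTC they differed in 5 genes, 1 higher and 4 lower, beside 21.8% of all genes, 9.71% higher and 12.1% lower. Among the 34 ligands 17 changed in ATC against normal, and among the 17 receptors 4 did. In PTC against normal these counts were 8 ligands and 0 receptors, and 2 receptors had an unadjusted limma p under the same threshold. The PTC against normal count was 5 without PTC array 1, beside 10.2% of all genes. Within the JK series it was 16, 13 higher and 3 lower, beside 25.5% of all genes. In a fit of the PTC and normal arrays alone it was 26, beside 45.8% of all genes, and with array weights 31, beside 51.4%. The receptor Ccr1 passed on JK arrays alone (limma adjusted p = 2.57e-05) and in the fit of those groups alone (limma adjusted p = 0.00171). For ATC against PTC, a fit of those groups alone gave 19, beside 37% of all genes, and array weights 23, beside 51%. For recurrent against PTC, the JK series gave 11, beside 31.3% of all genes, and array weights 14, beside 45%. In the fit over all arrays the share of the 51 genes that changed was close to or below that of all genes except in ATC against normal, where 41.2% of them changed. All arrays of one group lay to one side of the other for 10 of the 51 genes in PTC against normal (34.3% of all genes), 17 in ATC against normal (34.1%) and 13 in ATC against PTC (32.5%).

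Without the array labelled recurrent 2 the counts were 14 in recurrent against normal (33.4% of all genes), 2 against ATC (6.81%) and 5 against PTC (22.6%). The next setting, without normal pools 3 and 5, was chosen after the values were seen. In it 12 genes changed in PTC against normal (11.7% of all genes), 18 in ATC against normal (29.6%) and 12 in recurrent against normal (27.3%). Of the 51 genes, 26 passed the test in no comparison, 14 ligands and 12 receptors. Among arrays without JK titles, whose 2 pools include pool 5, 4 of the 51 genes changed in ATC against normal and 1 in recurrent against normal. The share of all genes is not set beside these counts, so they are not read as results about the chemokines. All 3 comparisons with normal glands rest on the same 6 pools.

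**Figure D1:**
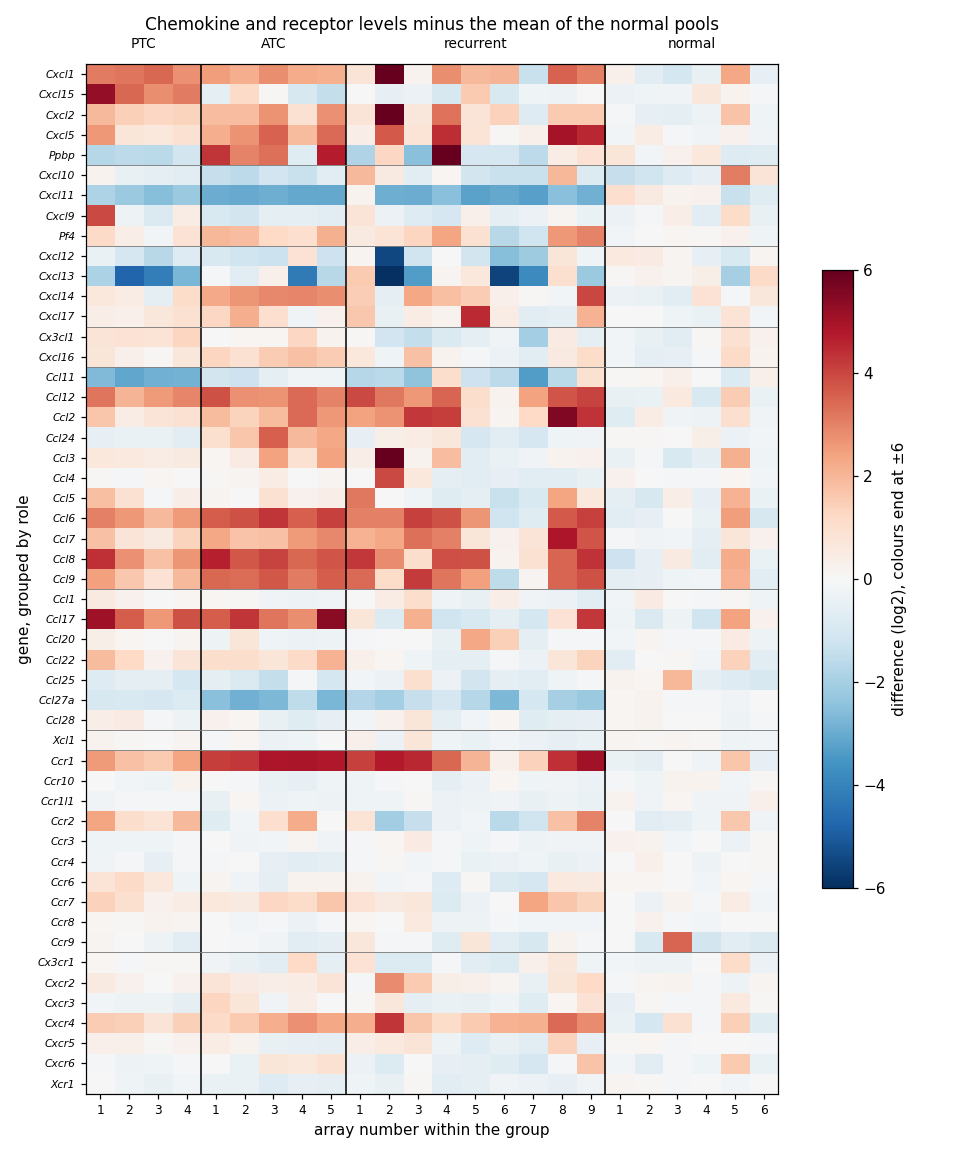
Level of each of the 51 genes on each of the 24 arrays, as log2 intensity minus the gene's mean over the 6 normal pools, with columns in the order PTC, ATC, recurrent and normal. Ccl6, Ccl8, Ccl9, Ccl12 and Ccr1 are high across ATC, mixed in recurrent tumours, and low in 5 of 6 normal pools, pool 5 being the highest of the pools for each of them.

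Of 11 inflammatory CC ligands, 7 rose in ATC against normal and 0 fell, where 15.1% of all genes rose and 19.1% fell. In recurrent against normal 6 rose and 1 fell, beside 14.5% and 19.3% of all genes. In PTC against normal 2 rose and 1 fell, beside 6.16% and 8.03%. The median difference of these ligands from normal was 2.24 in ATC, 2.26 in recurrent tumours and 0.95 in PTC. All genes had medians of -0.08 in ATC, -0.03 in recurrent tumours and -0.01 in PTC. Macrophage, fibroblast and mast cell or basophil marker means lay above every pool on all ATC arrays. Those of 8 lymphatic and node stroma markers did too, at 7.10 to 7.46 against 6.35 to 7.02. Recurrent arrays were mixed. On array 6 the macrophage mean (7.16) and Ccl6 (7.995) were both low. The array labelled recurrent 2 had a macrophage mean of 7.96 and a fibroblast mean of 10.002, with Ccl6 at 12.21. The mean of the 15-gene macrophage list was 8.60 to 9.47 in PTC, 9.87 to 10.32 in ATC and 7.16 to 10.61 in recurrent tumours, against 7.63 to 9.03 in normal pools, and 11 of 15 markers rose in ATC against normal, 5 in recurrent tumours and 2 in PTC. The mean of 10 fibroblast markers was 10.48 to 11.66 in PTC, 11.57 to 12.56 in ATC and 10.002 to 12.55 in recurrent tumours, against 10.10 to 10.55 in normal pools, and 6 of 10 rose in ATC against normal, 6 in recurrent tumours and 2 in PTC. For 9 mast cell and basophil markers the mean was 5.99 to 6.37 in PTC, 6.78 to 7.27 in ATC and 5.44 to 7.32 in recurrent tumours, against 5.57 to 5.89 in normal pools, with 5 of 9 higher in ATC, 6 in recurrent tumours and 1 in PTC, and 1 lower in each. Array intensities have no zero, so absence of a marker cannot be read. The part of these cell types in the chemokine differences was not tested.

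Ccl6, a rodent ligand of CCR1, read 12.21, 11.79, 11.15 and 11.74 on the PTC arrays and 12.83, 13.02, 13.49, 12.80 and 13.30 on the ATC arrays. Recurrent tumours ran from 7.995 to 13.30 with a median of 12.21, and normal pools from 8.24 to 11.71 with a median of 8.74. All ATC arrays lay above all pools, whereas recurrent array 7, at 8.47, lay among the pools and recurrent array 6, at 7.995, below every pool. Ccl6 rose by 3.89 ± 0.83 (SE) in ATC (limma adjusted p = 0.000867) and by 2.49 ± 0.72 in recurrent tumours (limma adjusted p = 0.0098). In PTC the difference was 2.53 ± 0.88, not called (limma adjusted p = 0.0586), and it was called without normal pool 5 (3.03, limma adjusted p = 0.0187). Ccl9, the neighbouring CCR1 ligand, read 10.69, 9.86, 9.12 and 10.18 on PTC arrays and 11.69, 11.61, 11.98, 11.35 and 11.89 on ATC arrays. Its recurrent range was 6.71 to 12.46 with a median of 11.45, and its normal range 7.63 to 10.32 with a median of 7.87. Here too ATC lay apart from the pools, with recurrent array 6 below every pool. Ccl9 rose by 3.46 ± 0.78 in ATC (limma adjusted p = 0.00145) and by 2.26 ± 0.68 in recurrent tumours (limma adjusted p = 0.0125). In a fit of the recurrent and normal arrays alone Ccl9 was not called (limma adjusted p = 0.05025).

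Ccr1, their receptor on monocytes, macrophages and neutrophils, had the largest rise of the 51 genes in ATC against normal. It read 8.38, 7.56, 7.39 and 8.17 on PTC arrays and 9.98, 10.07, 10.65, 10.71 and 10.62 on ATC arrays. In recurrent tumours it ran from 6.13 through a median of 9.92 to 10.86, and normal pools from 5.27 through 5.51 to 7.50. ATC lay above PTC on every array and PTC overlapped only pool 5. Ccr1 rose by 4.59 ± 0.67 in ATC against normal (limma adjusted p = 1.94e-05), 24.1-fold, and by 3.33 ± 0.59 in recurrent tumours against normal (limma adjusted p = 0.00014). ATC exceeded PTC by 2.53 ± 0.75 (limma adjusted p = 0.0214), a call lost without PTC array 2 (2.43, limma adjusted p = 0.0649) or PTC array 3 (2.37, limma adjusted p = 0.0664). PTC exceeded normal by 2.06 ± 0.72, not called (limma adjusted p = 0.0582), but called without normal pool 5 (2.40, limma adjusted p = 0.0269). Ccr1l1, a neighbouring gene with a sequence like that of Ccr1, did not follow it: its means were 5.03 in PTC, 4.92 in ATC and 4.90 in recurrent tumours, against 5.18 in normal pools. It fell by 0.28 in recurrent tumours (limma adjusted p = 0.0468), and that call was lost in 17 of 24 fits that left out 1 array (limma adjusted p up to 0.14).

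Ccl2, Ccl7 and Ccl12 encode monocyte-attracting ligands of CCR2, Ccl12 being a mouse gene. Ccl12 read 9.14, 7.97, 8.49 and 8.88 on PTC arrays and 9.75, 8.70, 8.62, 9.36 and 8.93 on ATC arrays. The 9 recurrent arrays ran from 6.16 to 9.998 with a median of 9.11, and normal pools from 5.05 to 7.47 with a median of 5.55. PTC and ATC each lay above all pools, and recurrent arrays 5 and 6 overlapped them. Ccl12 rose by 2.67 ± 0.61 in PTC (limma adjusted p = 0.00448), by 3.13 ± 0.57 in ATC (limma adjusted p = 0.000216) and by 2.75 ± 0.50 in recurrent tumours (limma adjusted p = 0.000198). For Ccl2 the PTC arrays read 8.01, 6.75, 7.08 and 7.25 and the ATC arrays 8.25, 7.67, 8.24, 9.72 and 8.95. Its recurrent range was 6.51 to 11.87 with a median of 9.04, and its normal range 5.60 to 7.30 with a median of 6.13. The 4 highest recurrent arrays for Ccl2 lay above every ATC array. Ccl2 rose by 2.86 ± 0.63 in recurrent tumours (limma adjusted p = 0.00127) and by 2.24 ± 0.73 in ATC (limma adjusted p = 0.0199). The ATC call was lost without ATC array 4 (1.95, limma adjusted p = 0.0593).

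Ccl7 read 6.86, 5.84, 5.64 and 6.42 on PTC arrays and 7.39, 6.81, 6.84, 7.65 and 7.95 on ATC arrays. Levels in recurrent tumours ran from 5.36 to 9.93 with a median of 7.38 and normal pools from 4.52 to 5.83 with a median of 4.97. ATC lay above all pools, and array 8 was the highest recurrent array for Ccl7 as for Ccl2. Ccl7 rose by 2.25 ± 0.60 in ATC (limma adjusted p = 0.00589) and by 2.34 ± 0.53 in recurrent tumours (limma adjusted p = 0.00142). Ccr2, the receptor of these ligands on monocytes, passed the test in no comparison. Its PTC arrays read 9.16, 7.86, 7.60 and 8.75 and its ATC arrays 6.08, 6.64, 7.82, 9.01 and 6.78. Recurrent tumours ran from 4.71 to 9.75 and normal pools from 6.16 to 8.43, so all 4 groups overlapped. The PTC level was 1.55 ± 0.79 above normal (limma adjusted p = 0.217), and recurrent tumours differed from PTC by -1.69 ± 0.73 (limma adjusted p = 0.105). Of the 2 dimmer Ccr2 probe sets, 1 had means of 5.53 in PTC, 5.58 in ATC and 5.64 in recurrent tumours, against 4.58 in normal pools, a pattern unlike that of the one used. The other had means of 7.01 in PTC, 5.95 in ATC and 5.82 in recurrent tumours, against 5.82 in normal pools, and like the one used was highest in PTC.

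Ccl8, a neighbour of Ccl12 whose product is a ligand of CCR8 in mice, read 12.36, 10.71, 9.71 and 10.63 on PTC arrays and 12.66, 11.70, 12.03, 11.43 and 11.77 on ATC arrays. In recurrent tumours it ran from 8.19 to 12.30 with a median of 11.47, and normal pools from 6.72 to 10.19 with a median of 7.54. Pool 5 was the highest pool, above PTC array 3, and ATC lay above all pools. Ccl8 rose by 2.88 ± 0.78 in PTC (limma adjusted p = 0.0142), 3.94 ± 0.73 in ATC (limma adjusted p = 0.000228) and 2.76 ± 0.63 in recurrent tumours (limma adjusted p = 0.0018). The PTC call was lost without PTC array 1 (2.38, limma adjusted p = 0.074). Ccr8, the receptor of Ccl8, stayed between 3.96 and 4.91 on all 24 arrays and passed the test in no comparison.

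The ligands of CCR3 on eosinophils, Ccl24 and Ccl11, parted from each other. Ccl24 read 6.68, 6.76, 6.77 and 6.51 on PTC arrays and 8.11, 8.86, 10.77, 9.11 and 9.51 on ATC arrays. The 9 recurrent arrays ran from 6.16 to 7.83 with a median of 6.92, and normal pools from 6.80 to 7.52 with a median of 7.23. Every ATC array lay above every other array. ATC exceeded PTC by 2.59 ± 0.39 (limma adjusted p = 6.98e-05) and normal by 2.10 ± 0.35 (limma adjusted p = 7.73e-05). Recurrent tumours differed from ATC by -2.34 ± 0.32 (limma adjusted p = 9.9e-05), and Ccl24 was the 1 member whose recurrent and ATC arrays did not overlap, as 0.888% of all genes did not. Within the JK series that difference was -1.21 (limma adjusted p = 0.0223), and within the bare-number arrays it was -3.04, not called (limma adjusted p = 0.0586).

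Ccl11 read 6.17, 5.71, 5.96 and 6.01 on PTC arrays and 7.75, 7.57, 8.27, 8.61 and 8.58 on ATC arrays. Levels in recurrent tumours ran from 5.48 through a median of 7.24 to 9.91, and normal pools from 8.01 through 8.91 to 9.15. PTC lay below all ATC arrays and all pools. Ccl11 fell by 2.86 ± 0.59 in PTC against normal (limma adjusted p = 0.0018), and it rose by 2.19 ± 0.61 in ATC against PTC (limma adjusted p = 0.0152). In recurrent tumours the differences were -1.28 ± 0.48 from normal (limma adjusted p = 0.0426) and 1.59 ± 0.55 from PTC (limma adjusted p = 0.0401). Leaving out 1 array ended the first of these calls in 12 of 24 fits and the second in 6 of 24 (limma adjusted p up to 0.0827 and 0.113). Neither was called in fits of the 2 groups alone (limma adjusted p = 0.11 against normal and 0.158 against PTC). A block for the bare-number titles left an ATC difference from PTC of 1.65, which was not called (limma adjusted p = 0.0886). Ccr3, the receptor of both ligands, stayed between 3.57 and 4.39 on all arrays.

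Ccl3, Ccl4 and Ccl5, which draw in monocytes and T cells, passed the test in no comparison. Ccl3 read 5.60 to 5.81 in PTC, 5.26 to 7.57 in ATC and 4.49 to 11.20 in recurrent tumours, against 4.25 to 7.30 in normal pools. The array labelled recurrent 2 held the highest level of both Ccl3, at 11.20, and Ccl4, at 10.38, where the other recurrent arrays reached 7.003 and 7.05. Ccl5 was highest on recurrent arrays 1 and 8, at 10.78 and 9.97, and ran from 7.46 to 9.41 in PTC and from 7.64 to 8.52 in ATC, against 6.62 to 9.70 in normal pools.

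**Figure D2:**
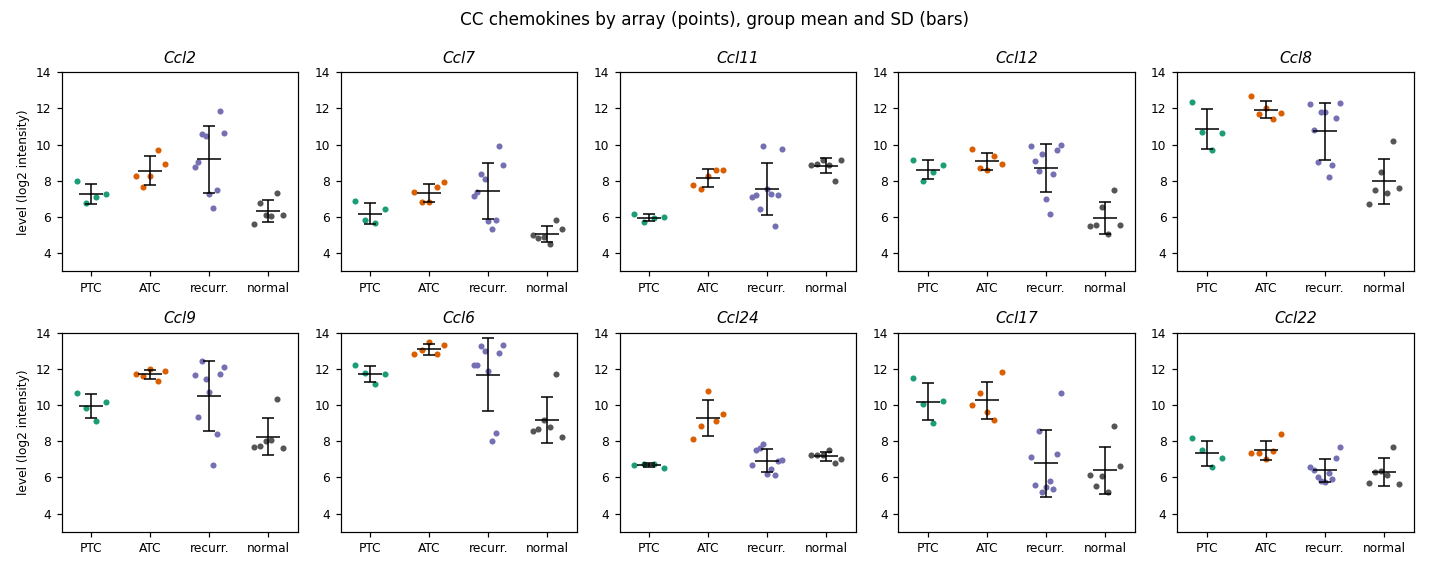
CC chemokine ligands by array: each point is the log2 intensity of 1 array, and bars give the group mean and SD for PTC (n = 4), ATC (n = 5), recurrent tumours (n = 9) and normal pools (n = 6). Ccl24 stands high in ATC alone, Ccl11 low in PTC, and Ccl17 high in PTC and ATC with a recurrent median of 5.82.

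Of 7 homeostatic CC ligands measured, 2 changed in PTC against normal, 3 in ATC against normal and 1 in recurrent against normal. Of all genes, 14.2, 34.3 and 33.8% changed in these comparisons. Ccl17 attracts T cells that carry CCR4. It read 11.51, 10.04, 9.03 and 10.21 on PTC arrays and 10.01, 10.68, 9.60, 9.19 and 11.83 on ATC arrays. Recurrent tumours ran from 5.21 to 10.66 with a median of 5.82, and normal pools from 5.20 to 8.84 with a median of 6.11. All PTC and ATC arrays lay above all pools, and 8 of 9 recurrent arrays lay below every PTC and ATC array, array 9 being the exception. Ccl17 rose by 3.79 ± 0.89 in PTC (limma adjusted p = 0.00547) and by 3.86 ± 0.84 in ATC (limma adjusted p = 0.00105). Recurrent tumours differed by -3.48 ± 0.77 from ATC (limma adjusted p = 0.0101) and by -3.41 ± 0.83 from PTC (limma adjusted p = 0.00485). In a fit of the recurrent and ATC arrays alone the difference was not called (limma adjusted p = 0.0774).

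Ccl22, the other CCR4 ligand on the same chromosome as Ccl17, had a smaller range. It ran from 6.58 to 8.20 in PTC, 7.01 to 8.39 in ATC and 5.78 to 7.66 in recurrent tumours, against 5.62 to 7.70 in normal pools. It rose by 1.20 ± 0.38 in ATC (limma adjusted p = 0.0165), a call lost without ATC array 5 (0.98, limma adjusted p = 0.0629). Ccr4 had means of 5.21 in PTC, 5.09 in ATC and 5.21 in recurrent tumours, against 5.45 in normal pools. It fell by 0.37 ± 0.14 in ATC (limma adjusted p = 0.0437), and 11 of 24 fits without 1 array lost that call (limma adjusted p up to 0.14).

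Ccl27a, a ligand of CCR10 best known from skin, fell in all 3 tumour groups, as did Cxcl11. It read 7.40, 7.44, 7.32 and 7.55 on PTC arrays and 5.82, 5.44, 5.64, 6.84 and 5.59 on ATC arrays. In recurrent tumours it ran from 5.63 through 6.58 to 7.34, and normal pools from 8.14 through 8.33 to 8.54. Every tumour array lay below every pool, and this was the 1 member for which recurrent tumours and pools did not overlap, beside 8.02% of all genes. Ccl27a fell by 2.48 ± 0.26 in ATC (limma adjusted p = 3.2e-07), by 1.76 ± 0.23 in recurrent tumours (limma adjusted p = 3.79e-06) and by 0.92 ± 0.28 in PTC (limma adjusted p = 0.0285). ATC lay below PTC by -1.56 ± 0.29 (limma adjusted p = 0.000653), and recurrent tumours by -0.84 ± 0.26 (limma adjusted p = 0.0221). The PTC call against normal was lost in 6 of 24 fits without 1 array (limma adjusted p up to 0.0803), and the recurrent call against PTC in 2 of 24 (limma adjusted p up to 0.0665). In a fit of the recurrent and PTC arrays alone Ccl27a was not called (limma adjusted p = 0.0724). The mouse genome holds near-identical copies of this gene, and the probe set cannot be taken to read 1 copy only. Ccr10, its receptor, ran from 5.45 to 6.27 over all arrays and passed the test in no comparison.

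The remaining homeostatic ligands, Ccl1, Ccl20, Ccl25 and Ccl28, passed the test in no comparison. Ccl25, a ligand that thymus and gut make for CCR9, was highest in normal pool 3, at 8.78, beside 5.84 to 7.01 in the other pools. Ccr9 too was highest in pool 3, at 8.48 beside 3.88 to 4.98 in the other pools, and this pool carried the highest thymus marker mean. Recurrent array 3, with the next highest Ccl25 level at 7.79, had a Ccr9 level of 4.86. Ccl20, the CCR6 ligand, was highest on recurrent array 5, at 7.55.

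Of 5 neutrophil-attracting CXC ligands, 2 rose in PTC against normal, 3 in ATC and 2 in recurrent tumours, and 0 fell against normal. Of all genes, 6.16, 15.1 and 14.5% rose in these comparisons, and 8.03, 19.1 and 19.3% fell. The calls of Cxcl1 and that of Ppbp in ATC were lost in some fits that left out an array, as given below. The counts are therefore not read as a result about these ligands as a family. Means of 10 neutrophil markers were 6.67 to 7.07 in PTC, 6.62 to 8.01 in ATC and 5.23 to 9.04 in recurrent tumours, against 5.95 to 6.73 in normal pools. Their part in these differences was not tested. Cxcl1, a CXCR2 ligand, read 9.39, 9.50, 9.75 and 9.03 on PTC arrays and 8.78, 8.47, 9.08, 8.50 and 8.44 on ATC arrays. The 9 recurrent arrays ran from 4.96 to 12.42 with a median of 8.32, and normal pools from 5.26 to 8.60 with a median of 5.81. PTC lay above all pools, ATC above all but pool 5, and the recurrent group spanned the whole range.

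Cxcl1 rose by 3.13 ± 0.91 in PTC (limma adjusted p = 0.0229), by 2.37 ± 0.85 in ATC (limma adjusted p = 0.0352) and by 2.12 ± 0.74 in recurrent tumours (limma adjusted p = 0.0306). The PTC call of Cxcl1 was lost without PTC array 1, 2 or 3 or normal pool 3 (limma adjusted p up to 0.0662). The ATC and recurrent calls were lost in 9 and 6 of 24 fits without 1 array (limma adjusted p up to 0.0733 and 0.074). Without the array labelled recurrent 2, whose Cxcl1 level was 12.42, the recurrent difference was 1.62 (limma adjusted p = 0.042). Cxcl2, its neighbour with the same GGGAATTTCCC run in the promoter shown above, had means of 7.08 in PTC, 7.60 in ATC and 7.33 in recurrent tumours, against 5.59 in normal pools. It passed the test in no comparison, with a difference of 2.01 ± 0.81 in ATC (limma adjusted p = 0.0583). Cxcl2 too was highest on the array labelled recurrent 2, at 12.02, where the neutrophil marker mean was 9.04, the highest of the 24 arrays.

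Cxcl5, another CXCR2 ligand, read 6.53, 4.64, 4.56 and 4.85 on PTC arrays and 6.11, 6.60, 7.45, 5.84 and 7.30 on ATC arrays. Levels in recurrent tumours ran from 3.97 to 8.90 with a median of 4.75, and normal pools from 3.68 to 4.36 with a median of 3.78. The recurrent arrays parted into 5 at 3.97 to 4.75 and 4 at 7.58 to 8.90, these 4 above every ATC array. Cxcl5 rose by 2.74 ± 0.81 in ATC (limma adjusted p = 0.0115) and by 2.22 ± 0.71 in recurrent tumours (limma adjusted p = 0.018). With bare-number titles as a block neither was called, the differences being 2.29 (limma adjusted p = 0.0612) and 1.72 (limma adjusted p = 0.129).

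Cxcl15, known in mice from lung epithelium, separated PTC from the other arrays. It read 10.76, 8.97, 8.29 and 8.63 on PTC arrays and 4.97, 6.66, 5.57, 4.54 and 4.08 on ATC arrays. Recurrent tumours ran from 4.56 through 5.18 to 7.08, and normal pools from 5.17 through 5.33 to 6.19. Every PTC array lay above every other array. Cxcl15 rose by 3.66 ± 0.49 in PTC against normal (limma adjusted p = 2.95e-05). ATC differed from PTC by -4.00 ± 0.51 (limma adjusted p = 1.06e-05), and recurrent tumours by -3.85 ± 0.46 (limma adjusted p = 2.8e-06). In its neighbour Cxcl1, ATC differed from PTC by -0.76 ± 0.95 and was not called (limma adjusted p = 0.635).

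Ppbp, the platelet basic protein, read 5.08, 5.21, 5.18 and 5.67 on PTC arrays and 11.04, 9.76, 10.09, 6.07 and 11.47 on ATC arrays. In recurrent tumours it ran from 4.27 to 13.09 with a median of 5.79, and normal pools from 6.002 to 7.50 with a median of 6.82. ATC array 4 lay among the pools, and recurrent array 4, at 13.09, above every other array. ATC exceeded PTC by 4.40 ± 1.24 (limma adjusted p = 0.0164) and normal by 2.91 ± 1.12 (limma adjusted p = 0.0479). For Ppbp the call against PTC was lost with bare-number titles as a block (4.04, limma adjusted p = 0.0549), and the call against normal in 17 of 24 fits without 1 array (limma adjusted p up to 0.13). Means of 6 platelet markers overlapped between groups, at 6.19 to 6.27 in PTC, 5.93 to 6.27 in ATC and 5.85 to 6.89 in recurrent tumours, against 6.11 to 6.48 in normal pools. On recurrent array 4 the platelet mean was 5.85. Platelet marker means spanned only 5.85 to 6.89 over all arrays, and their part in the Ppbp differences was not tested.

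Cxcr2, the receptor of these ligands on neutrophils, passed the test in no comparison. It read 5.58, 5.30, 5.03 and 5.28 on PTC arrays and 5.79, 5.51, 5.46, 5.49 and 5.81 on ATC arrays. The 9 recurrent arrays ran from 4.59 to 7.86 and normal pools from 4.75 to 5.27. Its highest array was again the one labelled recurrent 2, at 7.86.

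The ligands of CXCR3 draw activated T and NK cells and are induced by interferons, except Pf4, a platelet and macrophage product. Cxcl11 read 6.36, 5.98, 5.65 and 5.97 on PTC arrays and 5.20, 5.20, 5.26, 5.12 and 5.14 on ATC arrays. Levels in recurrent tumours ran from 4.92 through 5.29 to 8.41, and normal pools from 6.88 through 8.44 to 9.22. All PTC and ATC arrays lay below all pools, and recurrent array 1 was the 1 recurrent array within the normal range. Means of 6 adipocyte markers were 6.85 to 7.72 in PTC, 5.92 to 7.23 in ATC and 5.73 to 8.70 in recurrent tumours, with the 8.70 on array 1, against 8.09 to 10.65 in normal pools, with the 8.09 in pool 5, which had the lowest Cxcl11 level of the pools. Of these markers 4 fell in PTC, 5 in ATC and 5 in recurrent tumours against normal, and their part in the Cxcl11 differences was not tested. Cxcl11 fell by 2.21 ± 0.50 in PTC (limma adjusted p = 0.00414), by 3.01 ± 0.47 in ATC (limma adjusted p = 3.83e-05) and by 2.57 ± 0.41 in recurrent tumours (limma adjusted p = 4.6e-05). A second Cxcl11 probe set was flat, with means of 3.81 in PTC, 3.61 in ATC and 3.69 in recurrent tumours, against 4.03 in normal pools, and the mean of both differed by -1.72 in ATC against normal. The RefSeq annotation used lists the gene as a transcribed pseudogene in the reference strain.

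Cxcl9 and Cxcl10 passed the test in no comparison. Cxcl9 was 9.79 on PTC array 1 and 4.71 to 6.94 on the other arrays. Cxcl10 was highest in normal pool 5, at 9.77, followed by recurrent arrays 8 and 1, at 8.65 and 8.62. Among the pools, pool 5 had the highest Cxcl9 and Cxcl10 levels and the lowest Cxcl11 level. In the tumours, PTC array 1 was the highest PTC array for Cxcl9, Cxcl10 (6.86) and Cxcl11 (6.36). Recurrent array 1 was the highest recurrent array for Cxcl9 (6.59) and Cxcl11 (8.41). Pf4 had means of 9.41 in PTC, 10.48 in ATC and 9.80 in recurrent tumours, against 8.84 in normal pools. It rose by 1.63 ± 0.62 in ATC (limma adjusted p = 0.0434), where all ATC arrays lay above all pools, and the call was lost in 11 of 24 fits without 1 array (limma adjusted p up to 0.0967). Cxcr3 read 5.63 to 6.02 in PTC, 5.99 to 7.49 in ATC and 5.46 to 7.08 in recurrent tumours, against 5.71 to 6.79 in normal pools, and it passed the test in no comparison. Means of 12 T and NK cell markers were 5.28 to 5.87 in PTC, 5.14 to 5.41 in ATC and 4.93 to 6.11 in recurrent tumours, against 5.34 to 6.81 in normal pools, with the highest value in pool 3.

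**Figure D3:**
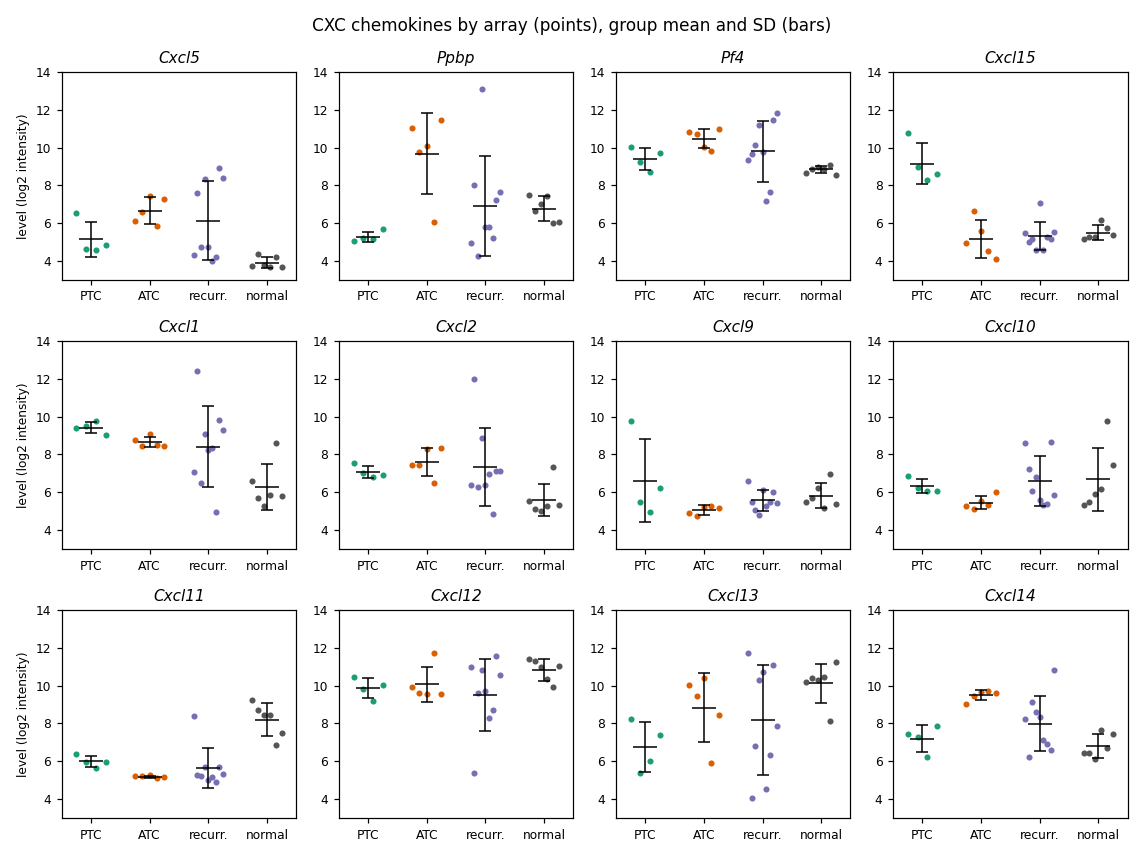
CXC chemokine ligands by array: each point is the log2 intensity of 1 array, and bars give the group mean and SD for PTC (n = 4), ATC (n = 5), recurrent tumours (n = 9) and normal pools (n = 6). Cxcl15 is high in PTC alone, Ppbp in 4 of 5 ATC arrays and 1 recurrent array, and Cxcl11 is high in the normal pools and recurrent array 1.

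Among constitutively made CXC ligands, Cxcl14, which epithelia and fibroblasts make, rose. It read 7.43, 7.26, 6.23 and 7.88 on PTC arrays and 9.06, 9.45, 9.68, 9.73 and 9.60 on ATC arrays. Recurrent tumours ran from 6.21 to 10.81 with a median of 8.26, and normal pools from 6.10 to 7.67 with a median of 6.56. ATC lay above all PTC arrays and pools. Cxcl14 rose in ATC by 2.71 ± 0.58 against normal (limma adjusted p = 0.000974) and by 2.30 ± 0.65 against PTC (limma adjusted p = 0.0159). The call of Cxcl14 against PTC was lost without PTC array 3 (1.98, limma adjusted p = 0.0698) and within the JK series (2.05, limma adjusted p = 0.07).

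Cxcl12, the stromal ligand of CXCR4, had means of 9.88 in PTC, 10.08 in ATC and 9.52 in recurrent tumours, against 10.83 in normal pools, and passed the test in no comparison. Cxcl13, which attracts B cells through CXCR5, had the widest spread of the 51 genes in recurrent tumours, with SDs of 1.31 in PTC, 1.81 in ATC and 2.91 in recurrent tumours, against 1.05 in normal pools. Its PTC level of 8.23, 5.36, 5.99 and 7.40 was below most pools, which ran from 8.12 through 10.35 to 11.25. The difference of -3.38 ± 1.30 was not called (limma adjusted p = 0.0887). Both Cxcl12, at 5.35, and Cxcl13, at 4.07, had their lowest level on the array labelled recurrent 2. Cxcl17 was highest on recurrent array 5, at 11.22, and passed the test in no comparison.

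Of the transmembrane ligands, Cxcl16, which binds CXCR6, rose by 1.41 ± 0.35 in ATC against normal (limma adjusted p = 0.00336). Its means were 9.003 in PTC, 9.96 in ATC and 8.86 in recurrent tumours, against 8.55 in normal pools. Cx3cl1, the ligand of CX3CR1, ran from 5.88 to 8.40 in recurrent tumours and read 8.69, 8.79, 8.73 and 9.24 on PTC arrays, without overlap. Recurrent tumours differed from PTC by -1.63 ± 0.36 (limma adjusted p = 0.00201), and by -0.84 in the mean of its 3 probe sets. Cx3cl1 and Cxcl15 were the 2 members whose recurrent and PTC arrays did not overlap, beside 9.56% of all genes. Epithelial marker means were 8.12 to 11.16 in recurrent tumours, against 12.10 to 12.57 in PTC, and their part in the Cx3cl1 difference was not tested. Cx3cr1 and Cxcr6 passed the test in no comparison.

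Cxcr4, the receptor of Cxcl12 on leukocytes and many tumour cells, read 7.49, 7.41, 6.76 and 7.43 on PTC arrays and 7.15, 7.54, 8.18, 8.73 and 8.29 on ATC arrays. In recurrent tumours it ran from 7.09 to 10.26 with a median of 8.10, and normal pools from 4.92 to 7.40 with a median of 5.72. Of the recurrent arrays, array 4 alone overlapped the pools, where pools 5 and 3 were highest. Cxcr4 rose by 2.35 ± 0.43 in recurrent tumours (limma adjusted p = 0.00019) and by 1.99 ± 0.49 in ATC (limma adjusted p = 0.00297). Within the JK series the ATC difference was 1.53 and not called (limma adjusted p = 0.0937). Xcr1, a receptor of cross-presenting dendritic cells, had low levels, 4.26 to 5.23 on all arrays, and fell by 0.53 ± 0.12 in ATC (limma adjusted p = 0.00167) and by 0.34 ± 0.11 in recurrent tumours (limma adjusted p = 0.0165). Neither Xcr1 call held within the JK series (limma adjusted p = 0.0793 in ATC and 0.2 in recurrent tumours). The lymphocyte receptors Ccr6, Ccr7 and Cxcr5 and the ligand Xcl1 passed the test in no comparison.

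**Figure D4:**
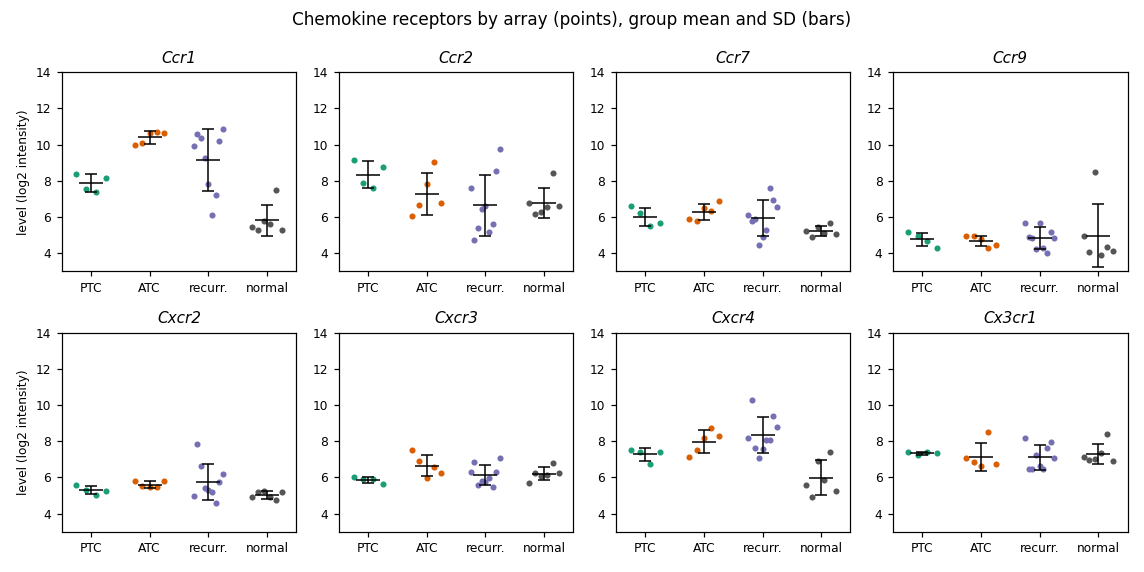
Chemokine receptors by array: each point is the log2 intensity of 1 array, and bars give the group mean and SD for PTC (n = 4), ATC (n = 5), recurrent tumours (n = 9) and normal pools (n = 6). Ccr1 has its highest mean in ATC, Cxcr4 is high in ATC and recurrent tumours, and Ccr9 is high in normal pool 3 alone.

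The median SD of the 51 genes was 0.30 in PTC, 0.47 in ATC, 1.00 in recurrent tumours and 0.56 in normal pools, where that of all genes was 0.14 in PTC, 0.27 in ATC, 0.52 in recurrent tumours and 0.18 in normal pools. In recurrent tumours 26 of the 51 had an SD above 1, beside 17.8% of all genes, and in normal pools 11 did, beside 1.19%. Recurrent array 7 was the lowest recurrent array for 17 genes and array 6 for 12, and their macrophage means of 8.46 and 7.16, with the 7.96 of the array labelled recurrent 2, were the 3 lowest of the recurrent arrays. In PTC, array 1 was the highest for 35 genes and array 3 the lowest for 30, with macrophage means of 9.47 and 8.60.

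Other genes of the pathway were read from lists of atypical receptors, signalling proteins, ligand-processing enzymes, inducers and other chemoattractants, 59 of 68 measured. In PTC against normal 5 of the 59 rose and 3 fell, where 14.2% of all genes changed. In ATC against normal 27 rose and 6 fell, beside 34.3% of all genes, and in recurrent against normal 20 rose and 5 fell, beside 33.8%. In ATC against PTC 10 rose and 2 fell, beside 17.2%. In recurrent against ATC 1 rose and 3 fell, beside 4.32%, and in recurrent against PTC 8 rose and 8 fell, beside 21.8%. Ackr3, a scavenging receptor for CXCL12, averaged 11.91 ± 0.27 in the 5 ATC and 8.68 ± 0.59 in the 4 PTC arrays (SD), a rise of 3.24 (limma adjusted p = 5.2e-05). Recurrent tumours exceeded PTC in Ackr3 by 2.24 (limma adjusted p = 0.000548).

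Of the inducers, Il6 rose by 4.31 (limma adjusted p = 0.000364) and Il1b by 2.85 (limma adjusted p = 0.00449) in ATC against normal. Of the processing enzymes, Mmp12, the macrophage elastase, rose by 4.45 in ATC against normal (limma adjusted p = 0.00463), and Mmp9 by 2.86 in recurrent tumours against normal (limma adjusted p = 0.000901). Dpp4, which clips many chemokines, fell by 2.10 in recurrent tumours against normal (limma adjusted p = 3e-05). In PTC against normal, Pik3cg, a kinase downstream of chemokine receptors, had the largest rise of the pathway genes, 1.75, and the receptor Tlr2 the largest fall, by -1.65.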

How the data were processed

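Total RNA from 24 mouse thyroid samples was read on Affymetrix Mouse430A_2 arrays. Each of 22690 probe sets has a deposited log2 intensity, which the authors obtained with RMA and Partek, per the submitters' processing notes, versions not being given in the sources used here. RMA subtracts background, summarizes probes and brings arrays to a common distribution, so a shift of all genes one way would not be seen. Values ran from 2.71 to 14.96, array medians from 7.38 to 7.58, and 0 of 276 pairs of arrays were identical (highest correlation 0.993).

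In the platform annotation, which named the probe sets, 20393 had 1 symbol, 691 several and 1606 none. RefSeq (GRCm38.p6) gave current symbols for the 20364 that matched by gene identifier. Each of 12394 genes was read through its probe set with the highest mean. A further 4 probe sets shared by several genes, among them copies of Ccl19, Ccl21 and Ccl27, were not used. Of the 51 genes, 14 had several probe sets.

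Groups come from the tissue label, and replicate numbers, given in record order, pair no arrays. limma 3.58.1 (R 4.3.3, with the package data.table in version 1.17.8) fitted 1 mean per group on all 24 arrays. Each gene had 1 spread shared by all groups, although the median SD of all genes was 0.52 in recurrent tumours, 0.27 in ATC, 0.14 in PTC and 0.18 in normal pools. Tests of PTC against normal thus also carry the recurrent spread, and tests of recurrent tumours use a spread narrowed by the other groups. Fits of the 2 groups alone do not share it. The moderated p-values of limma were adjusted by Benjamini-Hochberg over the 12394 genes and called under 0.05. This step was tested on simulated data. Other steps used Python 3.11.15 with pandas 2.3.3, numpy 2.4.6 and matplotlib 3.10.9. Array values are given for members called with a difference of at least 2 and for the receptors of those ligands, and for pathway genes at most 8 called per comparison. The members, roles, marker lists and tests were chosen with earlier results of these data known. Alternatives were the 2 groups alone, title series or bare-number titles as a block, JK or other arrays alone, means of probe sets, dim genes left out (mean under 6), a further quantile normalization, centring, a trended robust spread, array weights, WT-titled pools alone and each array left out.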

Additional observations from a re-analysis of the deposited data

Results flagged for a closer look

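In 30 of 204 groups of arrays tested, 1 per gene and group, the highest or lowest array stood away from the others by more than Dixon's test at 95% allows. Chance alone flags about 1 in 20 groups. The array with the most such values was normal pool 5, with 12. Its levels were the highest of the pools for Ccl22 (7.70), Ccl3 (7.30), Ccl6 (11.71), Ccl9 (10.32), Ccr1 (7.50), Ccr2 (8.43), Cx3cr1 (8.39), Cxcl17 (7.57), Cxcl2 (7.31) and Cxcr6 (6.60), and the lowest for Ccl11 (8.01) and Cxcl13 (8.12). For Ccl6 the next pool stood at 9.17. Normal pool 3 stood apart in Ccr9 at 8.48, with the next pool at 4.98.

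ATC array 4 stood above the other ATC arrays in 4 genes, Ccl27a (6.84), Cx3cl1 (9.16), Cx3cr1 (8.50) and Cxcl12 (11.71). ATC array 2 was highest for Ccl20 (5.96). In PTC, array 1 was highest for Cxcl5 (6.53) and lowest for Ccr1l1 (4.96), and array 3 was lowest for Cxcr4 (6.76).

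Among recurrent tumours, the array labelled recurrent 2 was highest for Ccl3 (11.20) and Ccl4 (10.38). Array 3 was highest for Ccl25 (7.79), Ccr1l1 (5.23) and Ccr8 (4.91). Single high values were Cxcl11 on array 1 (8.41), Ppbp on array 4 (13.09), Cxcl15 on array 5 (7.08) and Cxcr6 on array 9 (6.74).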

How the results depend on the processing

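Counts of changed chemokine and receptor genes moved by over 1.5 times under several settings. In fits of the 2 groups alone they were 26 in PTC against normal, 19 in ATC against PTC, 1 in recurrent against ATC and 3 in recurrent against PTC. The shares of all genes were 45.8, 37, 0.799 and 10.9%. With array weights the same 4 comparisons gave 31, 23, 5 and 14, beside 51.4, 51, 11 and 45% of all genes. Recurrent against normal gave 15 in the main fit and 10 in a fit of those groups alone, beside 25.4% of all genes. Within the JK series PTC against normal gave 16, recurrent against ATC 5 and recurrent against PTC 11, beside 25.5, 7.53 and 31.3% of all genes. Among arrays without JK titles ATC against normal gave 4, recurrent against normal 1 and recurrent against ATC 1, counts given without the share of all genes and not read as results about the chemokines. Among bare-number arrays alone, an alternative chosen after seeing the data, limma called 0 of the 51 genes in recurrent against ATC and 18 of all genes. Leaving out 1 array gave 5 to 12 in PTC against normal (10.2 and 14.3% of all genes) and 16 to 23 in ATC against normal (28.9 and 36.3%). It gave 6 to 9 in ATC against PTC (10.9 and 21.7%) and 12 to 16 in recurrent against normal (29.8 and 32.4%). For recurrent against ATC it gave 2 to 5 (3.67 and 4.33%) and for recurrent against PTC 3 to 8 (14.2 and 27.4%). Where several fits shared the lowest or highest count, the share is that of 1 of them. The lowest PTC against normal count came without PTC array 1 and the highest without normal pool 5; the lowest recurrent against PTC count came without PTC array 2. Without normal pools 3 and 5, also chosen after seeing the data, the counts were 12, 18, 7, 12, 3 and 4 in the same order of comparisons. The shares of all genes were 11.7, 29.6, 15.6, 27.3, 3.36 and 19.6%. Over single genes, only results called in the main fit, or with a difference of at least 2 either way in it, were followed. Their 2322 combinations of gene, comparison and alternative held 0 with a changed direction, 200 that lost their call and 37 that gained one. Most alternatives left out an array and kept all others, so a kept direction was likely beforehand. It is not read as a result about all 51 genes. The cause of the changes in counts and calls was not tested. No paired analysis was possible because replicate numbers only name the arrays. Another background correction was not run, as scanner values were not used here, and arrays without JK titles hold no PTC. Dim probe sets limit what can be said of 13 genes whose highest group mean was under 6.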
